A study of Rattus norvegicus with 22 samples.

Results

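The 111 genes described here encode the subunits of voltage-gated sodium channels, of potassium channels of every class and of voltage-gated calcium channels. They were chosen by symbol alone, as the genes whose symbol is Scn with a number and the letter a or b, or begins with Kcn or Cacn, among the 14217 rat genes that the array reads through a probe set with a single gene symbol. The sodium channel genes number 12, with 9 pore-forming and 3 beta subunits. The potassium channel genes number 75, with 31 voltage-gated pore subunits, 11 auxiliary subunits, 15 inward rectifiers, 11 two-pore channels and 7 channels or subunits opened by calcium or sodium. The calcium channel genes number 24, with 10 pore-forming, 2 alpha-2-delta, 4 beta and 8 gamma subunits. Together they are read by 178 probe sets, and each gene stands for its brightest.

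Voltage-gated sodium channels carry the upstroke of the action potential and cluster at the axon initial segment and at nodes of Ranvier. Potassium channels end the action potential, set the resting potential and, in astrocytes, take up the potassium that active axons release. Calcium channels admit the calcium that releases transmitter and, after trauma, drives the breakdown of axons, and their auxiliary subunits decide how many channels reach the membrane.

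The samples were 22 Affymetrix arrays of rat spinal cord in 8 groups. Normal cord came from rats with no operation named (3 arrays), and laminectomy removed bone without a blow to the cord (3 arrays). In the other 6 groups a 10 g weight with a tip of 2.5 mm fell 25 mm onto the cord at thoracic level 10, and tissue was taken 24 h after the contusion. The contusion group had that injury and no agent named (2 arrays). The clenbuterol group (2 arrays) received this agonist of the beta-2 adrenergic receptor at a labelled 150 mg/kg, a very high dose for this drug whose unit may be wrong, the X-ray group (3 arrays) 10 Gy in total, and the tempol group (3 arrays) this nitroxide scavenger of superoxide at 275 mg/kg, each 20 min after the blow. The BSO group (3 arrays) received buthionine sulfoximine, which blocks the making of glutathione, at 150 mg/kg 24 h before the blow. The tempol plus BSO group (3 arrays) received both. The sources used here do not give the strain, sex and age, the time from laminectomy to tissue collection, or whether replicates came from separate rats. A p-value below therefore covers only the spread between these samples, which may be technical.

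A value below is the log2 of the deposited signal of a probe set, and a difference is the first group's mean minus the second's with its standard error. Of the 111 genes, 88 had a mean log2 signal of at least 6, which is 64 on the linear scale (79.3%, against 84.8% of all genes). A mean signal set against 64 below is likewise a mean of log2 values. The other 23 lay in the dim range and include the sodium channel genes Scn2a, Scn4a, Scn8a and Scn11a and the glial potassium channel gene Kcnj10. The spread between arrays of a group was wide, with a median SD of 0.87 over the 111 genes, from 0.34 for Kcng2 to 1.70 for Kcnj15. Laminectomy 2 and normal 1 correlated less with the other arrays (median 0.667 and 0.685) than the remaining 20 arrays did (0.725 to 0.785). Both are uninjured arrays, so values without them are given for those of the 12 channel genes with the smallest p whose difference they moved by over 1.5 times.

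The broadest comparison set the 6 contused groups against the 2 uninjured groups, each group mean at equal weight, and so mixes the injury with the treatments. A single channel gene passed the threshold (limma, Benjamini-Hochberg adjusted p under 0.05 over 31042 probe sets): Scn1a was lower in contused cord. No channel gene passed in the other direction, where 7 had an unadjusted p under 0.05. Over all 14217 genes 0.141% passed as lower and 0.302% as higher, beside which 1 of 111 and 0 of 111 are counts that rest on a single gene. At an unadjusted p under 0.05, 6 channel genes were lower against a background of 5.67% and 7 were higher against 5.5%. The median difference of the 111 genes was 0.04, with 58 higher and 53 lower, beside 0.01 for all genes. By class the medians were -0.21 for sodium, 0.04 for potassium and 0.05 for calcium channel genes.

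Scn1a encodes a sodium channel pore of the axon initial segment and nodes, prominent in motor neurons and inhibitory interneurons. Its log2 signal was 8.74, 9.52 and 9.08 in normal cord and 8.59, 9.16 and 8.62 after laminectomy. It was 6.40 and 7.47 after contusion, 6.96 and 8.09 with clenbuterol, 6.99, 6.89 and 8.01 with X-rays and 6.62, 8.16 and 7.87 with tempol. It was 7.50, 6.38 and 7.39 with BSO and 8.30, 8.07 and 6.94 with tempol plus BSO. All 16 contused arrays lay below all 6 uninjured arrays, and the closest were tempol plus BSO 1 and laminectomy 1. Of the 14217 genes 0.183% had contused and uninjured arrays that do not overlap, and Scn1a was the only channel gene among them. Scn1a fell by 1.59 ± 0.32 on the log2 scale, a 3.01-fold lower signal (adjusted p = 0.0361, limma, Benjamini-Hochberg). The difference ran from -1.69 to -1.41 over 30 alternative settings, but its adjusted p ran from 0.0128 to 0.122 and passed in 18 of them. It did not pass with the replicate number as a block (adjusted p = 0.0550, limma) nor without laminectomy 2 and normal 1 (adjusted p = 0.122, limma, difference -1.59). It also failed without any 1 of the 6 uninjured arrays, contusion 1, clenbuterol 1, X-ray 1 or X-ray 2, with adjusted p from 0.0522 (without normal 1) to 0.105 (without laminectomy 2, limma). The gene is read by 1 probe set, so no second probe set bears on it.

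The neuron markers were lower in the same arrays. All 16 had lower values in contused cord, with a median of -0.70, 10 of them at an unadjusted p under 0.05 and 1, the neurofilament gene Nefl, past the threshold (-1.49 ± 0.29, adjusted p = 0.0319, limma, Benjamini-Hochberg). Their summed linear signal ran from 6838 to 22152 in contused and from 19626 to 41727 in uninjured arrays, and of the 16 markers Chat alone had a mean signal under 64. Whether the fall of Scn1a goes beyond that of the neuron markers was not tested. In bulk tissue fewer cells of a type and less RNA per cell cannot be told apart.

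None of the other pore-forming sodium channel genes passed. In the RefSeq gene order of assembly GRCr8, Scn3a and Scn2a are neighbours on chromosome 3, and Scn1a, Scn9a and Scn7a stand side by side on the same chromosome. Scn9a, a sodium channel pore of sensory and sympathetic neurons, differed by 0.30 ± 0.37, and Scn7a, the sodium-sensing channel of glia, by -0.33 ± 0.28. Scn3a, the pore of immature neurons, differed by -0.45 ± 0.39 and Scn2a, a pore of unmyelinated axons, by -0.17 ± 0.51. None of these 4 genes passed. The difference of Scn9a changed sign without normal 1, and that of Scn2a without normal 1 or laminectomy 1. Scn8a, the main pore of mature nodes, differed by 0.60 ± 0.52 at a dim signal that ran from 2.91 to 7.17 over the 22 arrays. The muscle gene Scn4a (0.17 ± 0.60) and the sensory neuron genes Scn10a (-0.30 ± 0.27) and Scn11a (0.67 ± 0.57) did not pass either. The beta subunits, which tether the pores to adhesion molecules, gave -0.53 ± 0.35 for Scn2b, 0.09 ± 0.54 for Scn3b and -0.26 ± 0.25 for Scn4b, none past the threshold. Second probe sets had the opposite sign for Scn2b (0.73) and Scn3b (-0.42).

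**Figure D1:**
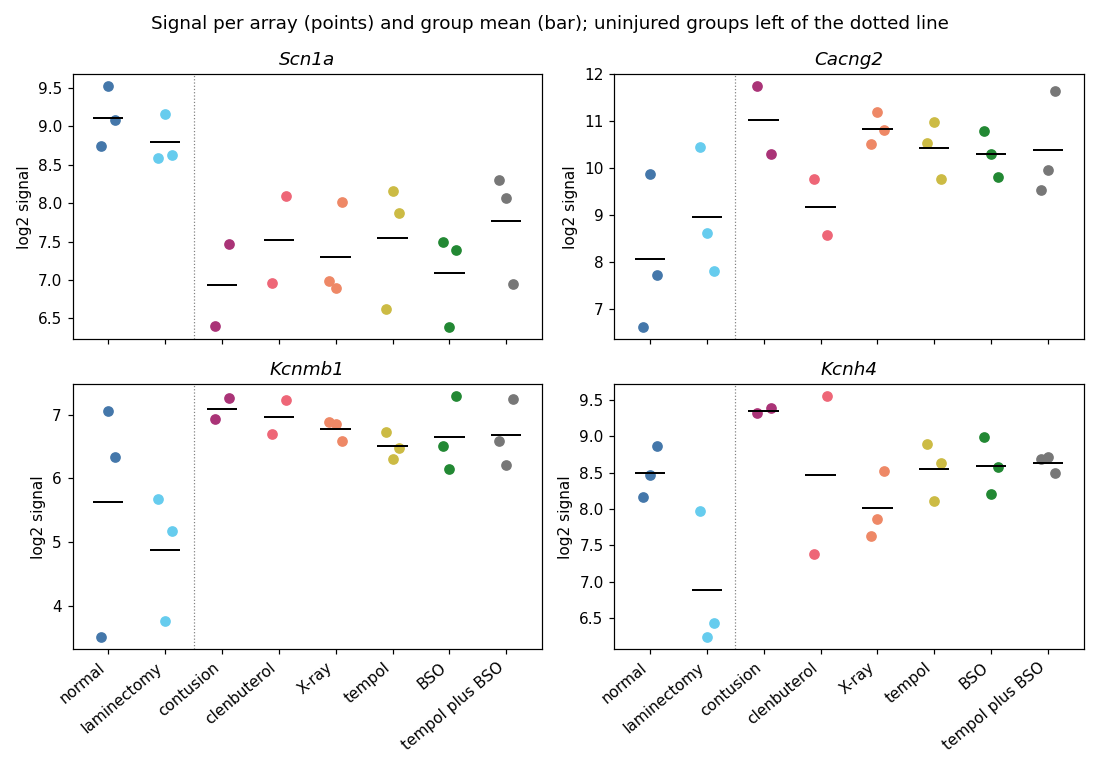
Log2 signal (vertical axis) of Scn1a, Cacng2, Kcnmb1 and Kcnh4 on each of the 22 arrays (points) with the group mean (bar), for the 8 groups along the horizontal axis, uninjured groups left of the dotted line. The contused arrays of Scn1a lie at 8.30 or lower and the uninjured arrays at 8.59 or higher, whereas the groups overlap for the other 3 genes.

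Among the voltage-gated potassium channel pores, 14 were higher and 17 lower, with a median of -0.05, and none passed. The genes with the smallest p-values were mostly lower. Kcna1, which lines the axon beneath the myelin beside each node, differed by -0.77 ± 0.34 (adjusted p = 0.439, limma) and by -0.35 without laminectomy 2 and normal 1. Its 16 contused arrays ran from 5.45 to 8.02 around a median of 7.14 and its 6 uninjured arrays from 7.08 to 8.87 around 7.54. Kcna2, its usual partner there, differed by -0.41 ± 0.59 on its brightest probe set and by -1.17 ± 0.51 on the second (unadjusted p = 0.0344, limma). The 2 Kcna genes thus had negative values on each of these 3 probe sets, without passing. Over the channel genes with several probe sets, the signs of the first 2 matched in 24 of 42. Kcns3, a silent subunit that modifies Kcnb channels, differed by -1.03 ± 0.43 and the delayed rectifier gene Kcnb2 by -0.92 ± 0.41 (adjusted p = 0.397 and 0.438, limma). Kcns3 ran from 6.90 to 8.13 in uninjured and from 4.17 to 8.21 in contused arrays, and both of these extremes were clenbuterol arrays. The contrast for Kcnb2 hides a split among the uninjured arrays, taken up with the laminectomy values. Kcnh5, of the ether-à-go-go family, differed by -1.01 ± 0.46 at a dim signal, and its relative Kcnh4 by 0.91 ± 0.32 (adjusted p = 0.460 and 0.288, limma). Without laminectomy 2 and normal 1 the difference of Kcnh5 was -0.54. The fast-spiking genes Kcnc1 (-0.69 ± 0.40) and Kcnc2 (0.14 ± 0.30) and the A-type gene Kcnd2 (-0.09 ± 0.39) did not pass. On their second probe sets Kcnc2 differed by 0.63 and Kcnd2 by -0.99. Kcna3, a channel of lymphocytes and activated microglia, differed by 0.84 ± 0.62.

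The auxiliary potassium channel genes had a median of -0.10, with 4 higher and 7 lower. Kcnab2, the beta subunit that carries Kcna channels down the axon, had 4 probe sets that pointed apart. The brightest differed by 1.23 ± 0.53 (unadjusted p = 0.0300, limma), the second by 0.05 ± 0.40, the third by -1.06 ± 0.41 (unadjusted p = 0.0183, limma) and the dimmest by 0.48 ± 0.35. No direction can therefore be given for this gene, and its mean over probe sets differed by 0.18. On the brightest probe set the lowest array was laminectomy 2 at 4.64, while the other 5 uninjured arrays ran from 6.82 to 9.20, and without laminectomy 2 and normal 1 its difference was 0.62. Kcnip2, whose product binds the A-type pores, differed by -0.85 ± 0.42 on its brightest probe set and by 0.70 ± 0.49 on the second.

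Of the 15 inward rectifiers 10 were higher, with a median of 0.35. None passed, and the upper quartile of all genes was 0.32. Laminectomy 2 was the lowest uninjured array for Kcnj1 (2.46), Kcnj2 (4.33), Kcnj3 (6.63), Kcnj4, Kcnj5, Kcnj6 (3.62), Kcnj8 and Kcnj15 (4.23). It was the highest for Kcnj9 (7.07), Kcnj12 (6.97) and Kcnj13 (6.83). The median of the inward rectifiers without that array was not computed. Kcnj6, a channel opened by G proteins in neurons, differed by 1.09 ± 0.48 (adjusted p = 0.432, limma), a value that was 0.42 without laminectomy 2 and normal 1. Its partner Kcnj3 differed by 0.23 ± 0.43, with the sign turned on each of its 2 other probe sets (-0.24 and -0.40). Kcnj10, the channel through which astrocytes take up potassium, went the other way at -1.03 ± 0.44 (adjusted p = 0.417, limma), and at -0.56 without laminectomy 2 and normal 1. Its signal was dim, from 3.47 to 7.06 around a median of 5.07 in contused arrays and from 4.76 to 7.48 around 6.61 in uninjured arrays. Kcnj16, which joins Kcnj10 in glia, differed by -0.39 ± 0.28 and the vascular ATP-sensitive gene Kcnj8 by -0.07 ± 0.31. On its second probe set Kcnj16 differed by 0.10. Beside these, 7 of 9 astrocyte markers were lower with a median of -0.54, and Aqp4 (-1.23 ± 0.26) and Slc4a4 (-1.36 ± 0.26) passed (adjusted p = 0.0482 and 0.0257, limma). The summed signal of the astrocyte markers ran from 15491 to 38949 in contused and from 30815 to 74454 in uninjured arrays, with no marker under 64, and its part in the Kcnj10 value was not tested.

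Of the 11 two-pore genes, which carry the leak current, 7 were higher with a median of 0.18 and none had an unadjusted p under 0.05. The astrocyte leak channel gene Kcnk1 differed by -0.23 ± 0.29, the stretch-gated Kcnk2 by -0.37 ± 0.28 and the acid-sensitive Kcnk9 by 0.64 ± 0.31. Kcnk13, the leak channel of microglia, differed by -1.04 ± 0.68 and Kcnk6, a channel of macrophages, by 0.08 ± 0.47. The acid-sensitive Kcnk3 was higher on its 3 probe sets (0.41 ± 0.30, 0.93 ± 0.66 and 1.31 ± 0.55), and only the dimmest had an unadjusted p under 0.05 (0.0283, limma). In the same arrays 5 of 6 microglial markers were higher with a median of 0.25 and none passed, and 8 of 8 macrophage markers were higher with a median of 0.91 and 3 past the threshold. The summed macrophage signal ran from 10599 to 22942 in contused and from 4189 to 29085 in uninjured arrays, with Cd163 under 64. Of the uninjured arrays, those of normal cord ran from 4189 to 6027 and those of laminectomy from 11005 to 29085. The laminectomy arrays thus overlapped the contused arrays, and the normal arrays lay below them.

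Kcnmb1, the beta subunit that makes smooth muscle channels more sensitive to calcium, had the third smallest p of all members. Its contused arrays ran from 6.15 to 7.29 around 6.71, and the uninjured values were 3.51, 7.05 and 6.33 in normal cord and 5.68, 3.77 and 5.18 after laminectomy. The contused arrays were close together, while the uninjured arrays were scattered, with normal 1 and laminectomy 2 the lowest and normal 2 and normal 3 within the contused range. The difference was 1.52 ± 0.40 (adjusted p = 0.136, limma, Benjamini-Hochberg) and 0.71 without laminectomy 2 and normal 1 (adjusted p = 0.563, limma). The 7 markers of pericytes and smooth muscle had a median of 0.10 with 4 higher. The pore gene Kcnma1 differed by -0.49 ± 0.34 and the immune channel gene Kcnn4 by 0.47 ± 0.60, both without passing. On its second probe set Kcnma1 differed by 0.15.

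Among the calcium channel genes Cacng2 stood highest. It encodes stargazin, which was named as a channel subunit and is best known for carrying AMPA receptors to the synapse. Its log2 signal was 6.62, 9.88 and 7.73 in normal cord, 10.45, 8.62 and 7.83 after laminectomy, and 11.75 and 10.30 after contusion. The 16 contused arrays ran from 8.59 to 11.75 around 10.41, and normal 2, laminectomy 1 and laminectomy 2 lay within that range. The difference was 1.84 ± 0.46 (adjusted p = 0.115, limma, Benjamini-Hochberg). Over 30 alternatives it ran from 0.64 to 2.29 and passed in 2, without normal 2 (adjusted p = 0.0333) and with the trend and robust settings of eBayes (adjusted p = 0.0482, limma). The second probe set of Cacng2 differed by -0.56 ± 0.43, so the probe sets of this gene had opposite signs.

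Of the 10 calcium channel pores 6 were higher, with a median of 0.06. Cacna1a, the pore that triggers transmitter release at most central synapses, differed by 1.11 ± 0.44 on the brightest of 5 probe sets (adjusted p = 0.365, limma) and by 0.28, 0.28, -0.35 and 0.66 on the others. Laminectomy 1 was low on that probe set at 6.67, against 8.96 to 10.31 on the other uninjured arrays and 9.46 to 11.64 on contused arrays. Cacna1b, the other release channel (-0.18 ± 0.29), the L-type Cacna1d (0.05 ± 0.47) and the T-type Cacna1g (-0.12 ± 0.40) did not pass. The alpha-2-delta subunit Cacna2d1, the target of gabapentin, differed by -0.60 ± 0.44 at a dim signal, and Cacna2d3 by 0.02 ± 0.27. The beta subunits Cacnb1, Cacnb2, Cacnb3 and Cacnb4, which bring the pores to the membrane, differed by 0.15 ± 0.25, 0.12 ± 0.41, 0.87 ± 0.46 and -0.02 ± 0.39. Of the other gamma subunits, Cacng8 differed by 1.07 ± 0.72, Cacng5 by 0.31 ± 0.34 and Cacng7 by -0.14 ± 0.32. As means over arrays, Cacng3 read 5.67 in contused and 5.83 in uninjured cord, and Cacng4 7.24 and 7.42. Of the 8 gamma subunits 4 were higher and 4 lower, with a median of -0.04 and none past the threshold.

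**Figure D2:**
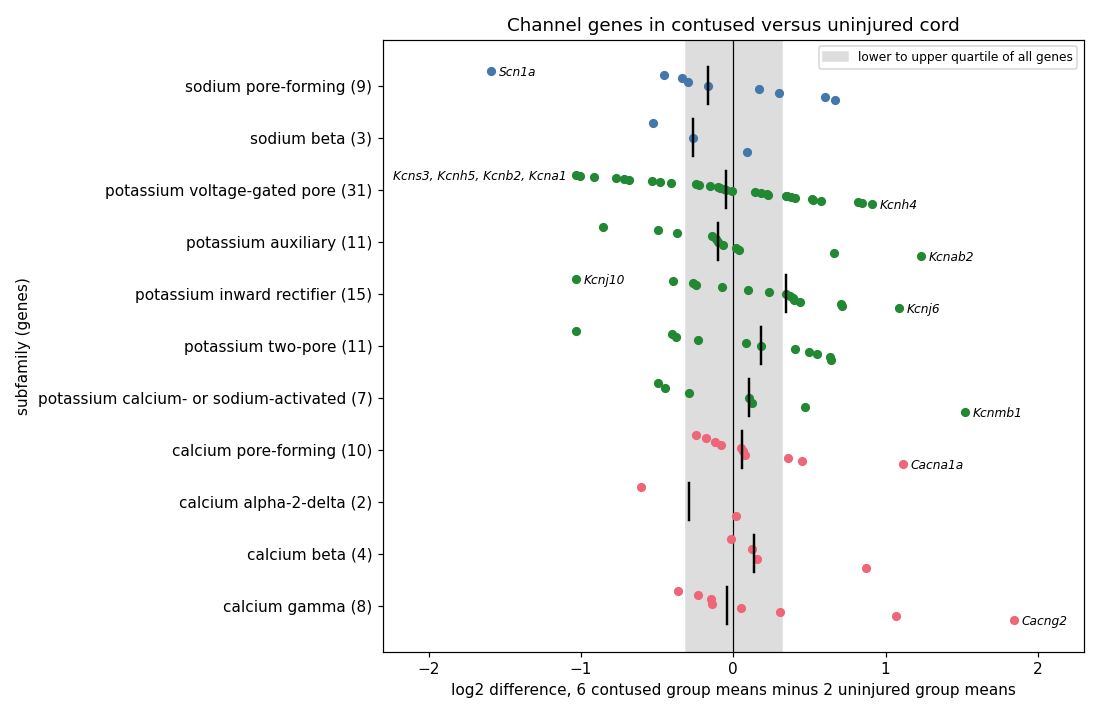
Log2 difference between contused and uninjured cord (horizontal axis) for each of the 111 channel genes (points), by subfamily with its number of genes (vertical axis), with the median of each subfamily (black bar) and the span from the lower quartile (-0.31) to the upper quartile (0.32) of all 14217 genes (grey band). The 12 genes with the smallest p-values are named, and Scn1a at -1.59 and Cacng2 at 1.84 lie farthest out.

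Genes with several probe sets allow the brightest to be set beside the next. Of the 111 genes 42 have more than 1 probe set. The 2 brightest probe sets of these 42 genes had the same sign in contused against uninjured cord in 24 cases (57.1%), beside 55.2% for the 4525 genes of the array with several probe sets. As a description over the 22 arrays, which share their tissue and scaling, the median correlation between such a pair was 0.03, against 0.04 over all such genes, and it was above 0.5 for 3 of the 42. With both probe sets at a mean signal of at least 64, 31 genes remained, with a median correlation of 0.03 and the same sign in 20. All probe sets pointed one way in 17 genes and apart in 25.

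**Figure D3:**
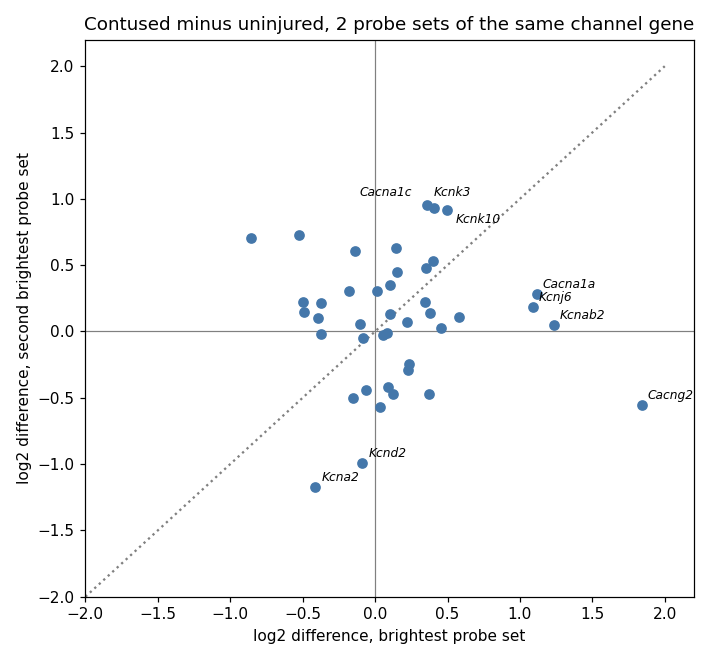
Log2 difference between contused and uninjured cord on the brightest probe set (horizontal axis) and the second brightest (vertical axis) of the 42 channel genes with several probe sets, with the line of equal values dotted. Of the 42 genes 24 have the same sign on both axes, and Cacng2 lies at 1.84 and -0.56.

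Other genes of excitability encode products that hold channels in place or restore the ion gradients. Of 47 such genes 41 were measured, and 30 of them were lower in contused cord with a median of -0.38. At an unadjusted p under 0.05 (limma), 14 were lower and 0 higher, against 5.67% and 5.5% of all genes. None passed the threshold (limma, Benjamini-Hochberg). All 6 measured genes of the sodium pump were lower (median -0.53), among them Atp1b1 (-0.77 ± 0.25) and Atp1b2 (-0.64 ± 0.25), the beta subunits of neurons and of astrocytes (adjusted p = 0.256 and 0.364, limma). Their summed signal ran from 6370 to 14147 in contused and from 13823 to 22419 in uninjured arrays, which overlap only narrowly. Of the 11 channel-bound partners 8 were lower with a median of -0.38, led by Dpp6 (-1.22 ± 0.35) and Dpp10 (-0.99 ± 0.35), which attach to A-type pores, Lgi1 (-1.54 ± 0.58), a secreted partner of Kcna channels, and Fgf13 (-0.93 ± 0.28), which binds sodium channel pores. Lgi1 had a mean signal under 64. The summed signal of these 11 partners overlapped between contused (2771 to 7356) and uninjured arrays (3636 to 6514), and the clenbuterol (5187 to 7356) and X-ray arrays (4980 to 6584) were as high as the normal ones (4890 to 6514). The 11 genes of the node and initial segment had a median of -0.29 with 7 lower. Among them Cntnap2, which gathers Kcna channels beside the node, differed by -1.08 ± 0.49 and the anchor gene Ank3 by -0.06 ± 0.29. The chloride genes had a median of -0.41 with 5 of 6 lower, including Slc12a5, the neuronal chloride exporter (-0.95 ± 0.31), and the calcium pumps and exchangers a median of -0.01, with Atp2b3 at -1.51 ± 0.45.

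Markers of cell types moved alongside. All 10 oligodendrocyte markers (median -0.60, 2 past the threshold) and all 5 progenitor markers (median -0.87, 1 past it) were lower. The 5 neutrophil markers (median 1.01, 2 past it) and the 4 red cell markers (median 0.95, 1 past it) were higher. The summed red cell signal ran from 3310 to 16607 in contused and from 724 to 1552 in uninjured arrays, in tissue that the labels describe as perfused with buffer. Of the 9 skeletal muscle markers 6 had a mean signal under 64, and their median was -0.01. The part of these shifts in the channel and partner values was not tested.

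**Figure D4:**
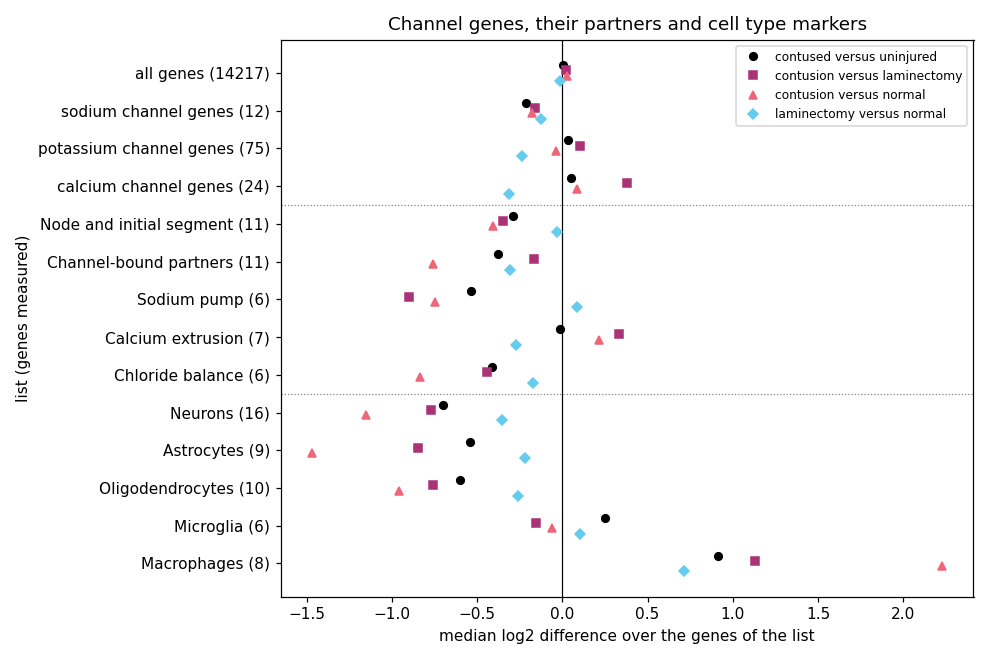
Median log2 difference (horizontal axis) of all genes, the 3 channel classes, the 5 partner lists and 5 lists of cell type markers (vertical axis, with the number of genes measured) in 4 comparisons (symbols). In contused versus uninjured cord the channel classes lie between -0.21 and 0.05 and the neuron markers at -0.70.

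Contusion alone was next compared with each uninjured group, which leaves the treated arrays out of the means. These comparisons share the same 2 contusion arrays. Against laminectomy no channel gene passed, as for all 14217 genes (0%), and 10 of 111 had an unadjusted p under 0.05 (7 higher and 3 lower) against a background of 5.26%. Kcnh4 had the smallest p (2.48 ± 0.60, adjusted p = 0.735, limma). It read 9.32 and 9.39 after contusion, 7.96, 6.23 and 6.43 after laminectomy and 8.17, 8.47 and 8.87 in normal cord. The contusion arrays were thus above both uninjured groups and the laminectomy arrays below the normal ones. Contusion arrays lay wholly above laminectomy arrays for 1413 of all 14217 genes and wholly below for 1497. Against normal cord these counts were 1711 and 1732. Next came Cacnb4 (2.68 ± 0.73), Scn1a (-1.86 ± 0.61), Kcng2 (-1.32 ± 0.43) and Kcnmb1 (2.22 ± 0.77), each with an adjusted p of at least 0.822. The median over the 111 genes was 0.09, beside 0.02 for all genes. That of the calcium channel genes was 0.38, with 16 of 24 higher. Against normal cord the calcium channel median was 0.08, with 13 of 24 higher. The laminectomy arrays themselves were below normal cord for the calcium channel genes, with a median of -0.31 and 17 of 24 lower.

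Against normal cord no channel gene passed either, where 0.0633% of all genes did, and 8 of 111 had an unadjusted p under 0.05 (2 higher and 6 lower) against 7.41%. Kcng2, a silent partner of Kcnb pores, had the smallest p (-1.80 ± 0.43, adjusted p = 0.226, limma), but the mean over its 3 probe sets differed by -0.18, and by -0.28 against laminectomy. It was followed by Scn1a (-2.18 ± 0.61, adjusted p = 0.338, limma), Kcnb2 (-2.75 ± 0.77), Cacng2 (2.95 ± 0.88) and Cacnb3 (2.56 ± 0.87). Scn1a was thus lower against each uninjured group taken alone, without passing in either. The median over the 111 genes was -0.04.

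Laminectomy and normal cord, the 2 uninjured groups, were also compared with each other. No channel gene passed, where 0.0141% of all genes did. At an unadjusted p under 0.05 stood 10 of 111 against 5.41%, and 9 of the 10 were lower after laminectomy. Of the 111 genes 72 were lower, with a median of -0.27, while the median of all genes was -0.01. Without laminectomy 2 the channel median was -0.11. Cacnb4, a beta subunit of neurons, read 6.94, 5.84 and 6.30 in normal cord and 2.68, 3.55 and 3.47 after laminectomy. The 2 groups do not overlap, and all 3 laminectomy arrays and normal 2 lay in the dim range. The difference was -3.13 ± 0.65 (adjusted p = 0.213, limma). Such a lack of overlap was common, with 694 of all 14217 genes wholly above normal cord after laminectomy and 592 wholly below. Among the 111 channel genes the counts were 3 and 16. Kcnb2 read 8.41, 7.07 and 9.63 in normal cord and 6.10, 4.77 and 6.66 after laminectomy (-2.53 ± 0.69, adjusted p = 0.577, limma), and its contusion arrays at 6.25 and 4.99 lay with the laminectomy arrays. Cacna2d3 (-1.45 ± 0.45), the ATP-sensitive Kcnj11 (-1.60 ± 0.53) and Kcnh4 (-1.63 ± 0.54) followed, each with an adjusted p of at least 0.672 (limma). Of the 16 neuron markers 15 were lower after laminectomy with a median of -0.35. Of the 8 macrophage markers 6 were higher and 2 lower (median 0.72), 4 of them higher at an unadjusted p under 0.05 (limma). All 5 neutrophil markers were higher (median 1.55), 3 of them at that level. The part of these markers in the channel values was not tested.

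The treated groups were then set against contusion. These 5 comparisons share the 2 contusion arrays, so a probe set that reads low or high on them shifts all of the comparisons at once. No channel gene passed in any of the 5, and the background was 0% in each. With clenbuterol 7 of 111 had an unadjusted p under 0.05 (3 higher and 4 lower) against 5.26%, and with X-rays 7 (2 higher and 5 lower) against 4.57%. With tempol the count was 3 against 2.83%, with BSO 4 against 3.22% and with tempol plus BSO 2 against 3.56%. The channel medians ran from -0.12 with X-rays to 0.06 with BSO.

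Kcng2 was low on both shared arrays. It read 6.57 and 5.55 on the contusion arrays and from 7.08 to 8.47 on all 20 others, and was among the first 2 members by p in every treated group. Its differences were 2.10 ± 0.48 with clenbuterol, 1.70 ± 0.43 with X-rays, 1.51 ± 0.43 with tempol, 1.51 ± 0.43 with BSO and 1.61 ± 0.43 with tempol plus BSO, and the smallest adjusted p was 0.536 (limma). The second probe set of Kcng2 gave -1.23, -2.17, -0.49, -1.88 and -3.60 in the same order. The mean over its 3 probe sets turned the sign with X-rays (-0.15), BSO (-0.48) and tempol plus BSO (-0.94).

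Cacna1b, the pore of N-type channels, had the smallest p of the channel genes in a test of differences among the 6 contused groups. It read 6.53, 4.79 and 5.54 with X-rays and 5.91 and 7.49 with clenbuterol. It read 7.84 and 7.86 after contusion, 7.17, 7.24 and 7.78 with tempol, 8.81, 8.49 and 7.72 with BSO and 8.17, 8.07 and 8.12 with tempol plus BSO. The X-ray arrays were the lowest along with clenbuterol 1, and the highest were those given BSO, alone or with tempol, apart from BSO 3. X-rays differed from contusion by -2.23 ± 0.54 (adjusted p = 0.942, limma). The moderated F test over the 6 contused groups gave an unadjusted p of 0.000238 and an adjusted p of 0.315 for Cacna1b (limma, Benjamini-Hochberg). No channel gene passed that test (all genes, 0%), and 5 of 111 had an unadjusted p under 0.05 against 5.22%. The other 4 were Cacnb4, Kcng2, Scn8a and Cacnb3.

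The beta subunits Cacnb3 and Cacnb4 did not pass that test (adjusted p = 0.810 and 0.624, limma moderated F test). They are among the 5 of 111 members at an unadjusted p under 0.05, against 5.22% of all genes, and are given by their values. Cacnb3 read 4.99, 4.88 and 6.02 with X-rays and 8.09 and 8.46 after contusion (-2.97 ± 0.87, adjusted p = 0.942, limma), but normal 1, normal 3, laminectomy 3 and BSO 2 lay within the range of the X-ray arrays. Cacnb4 read 5.89 and 5.93 after contusion, 3.37, 4.24 and 2.48 with tempol (-2.55 ± 0.73) and 6.04, 5.91 and 6.12 with tempol plus BSO. The tempol arrays of Cacnb4 were low and those given BSO as well were as high as contusion. The signal of Cacnb4 was dim, with a mean log2 signal of 4.79 over the 22 arrays and both contusion arrays in the dim range. The node gene Scn8a read 6.07, 7.17 and 6.36 with BSO and 3.54, 3.62 and 3.12 with X-rays, against 5.43 and 3.43 after contusion. With tempol it read 6.77, 5.53 and 6.83, as high as with BSO, and with tempol plus BSO it was scattered at 5.28, 3.07 and 6.89. Kcnh3, of the ether-à-go-go family, had the largest difference of the treated comparisons with clenbuterol, at 11.28 and 12.24 against 7.10 and 7.95 (4.24 ± 1.38, adjusted p = 0.776, limma), yet it ran from 7.09 to 11.30 over the other treated arrays. The remaining genes among the first 5 by p in a treated comparison are given by their values, and none passed (each adjusted p at least 0.815, limma). Kcnk4, a two-pore leak channel opened by stretch and lipids, read 7.97 and 7.59 after contusion, 4.87, 7.70 and 5.07 with tempol, 5.93, 6.70 and 5.55 with BSO and 5.46, 5.51 and 5.51 with tempol plus BSO. It differed by -1.90 ± 0.94, -1.72 ± 0.94 and -2.28 ± 0.94 in that order, while the uninjured arrays ran from 4.81 to 8.29 and so spanned all of these values. Kcnab3, a beta subunit of Kcna channels, differed by -1.95 ± 0.71 with tempol, and its 3 tempol arrays (5.22, 5.35 and 4.58) lay below both contusion arrays (6.14 and 7.88). Tempol arrays lay wholly above contusion arrays for 1103 of all 14217 genes and wholly below for 1224. With BSO the silent subunit gene Kcns2 differed by 1.72 ± 0.72 and the fast-spiking gene Kcnc2 by -1.31 ± 0.58. With tempol plus BSO Kcnc2 differed by -1.10 ± 0.58, Kcnh3 by 2.41 ± 1.26 and Kcnma1 by 1.16 ± 0.64. Over 14 alternatives these ran from -1.36 to -0.38 for Kcnc2, 1.80 to 3.57 for Kcnh3 and 0.18 to 1.48 for Kcnma1. The BSO difference of Kcnc2 ran from -1.75 to -0.31. With clenbuterol Scn7a differed by -1.41 ± 0.59, Scn10a by -1.29 ± 0.56 and Cacnb4 by -2.32 ± 0.80. With X-rays Kcnh4 differed by -1.35 ± 0.60 and Scn11a, at a dim signal, by 2.47 ± 1.07, with clenbuterol 2 at 8.26 above all of the X-ray arrays (4.85, 7.45 and 8.11).

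The interaction of tempol with BSO, computed after the data were seen, passed for no channel gene and gave an unadjusted p under 0.05 for 4 of 111, beside 3.26% of all genes (smallest adjusted p = 1.00, limma).

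**Figure D5:**
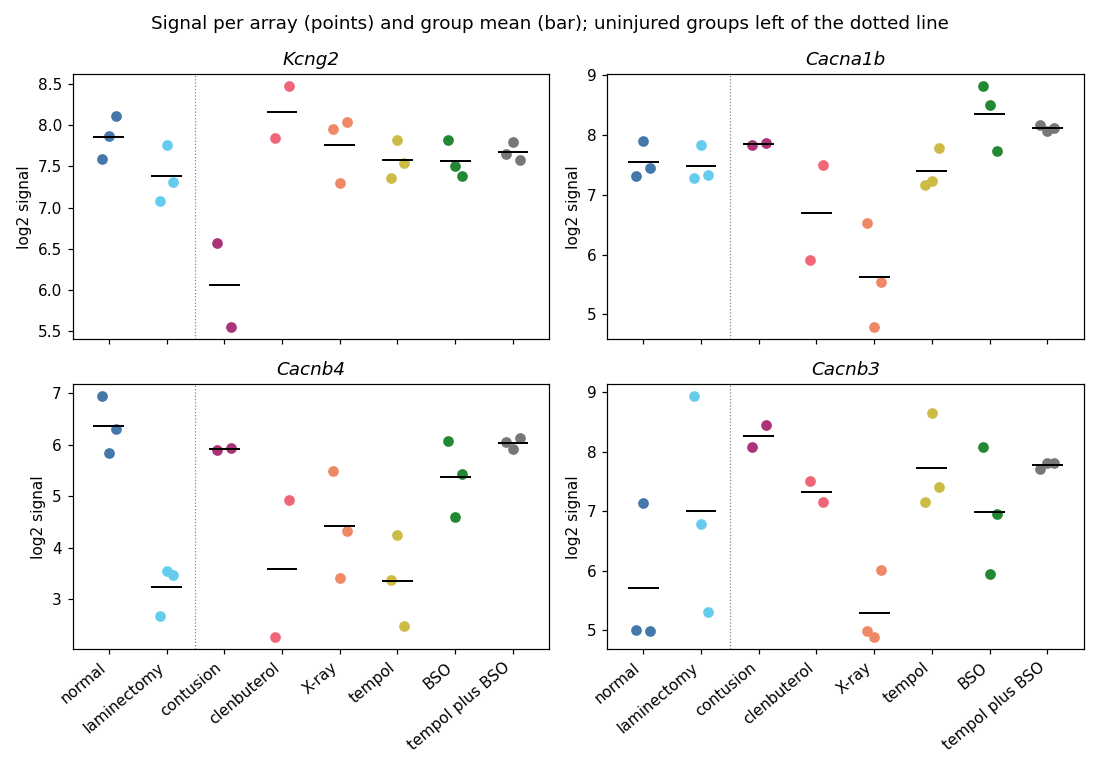
Log2 signal (vertical axis) of Kcng2, Cacna1b, Cacnb4 and Cacnb3 on each of the 22 arrays (points) with the group mean (bar), for the 8 groups along the horizontal axis, uninjured groups left of the dotted line. The 2 contusion arrays of Kcng2 lie at 6.57 and 5.55, below all others, and the 3 X-ray arrays of Cacna1b lie between 4.79 and 6.53.

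The promoters of the members were read for base composition and short motifs, as a description. Windows of 300 bases, from 250 before to 50 after the annotated start, were found for 78 of the 111 genes (87 windows, RefSeq, GRCr8). Their median GC content was 61.7%, against 59.7% in 13193 windows of genes on the array. The GC box GGGCGG, on either strand, stood in 55.2% of the channel windows and 55.8% of those of array genes, and TATAAA in 4.6% and 8.47%. The E box CACGTG stood in 3.45% and 8.65%, and TGACG, the core of the cAMP response element, in 20.7% and 28.1%. The left part of the site of the repressor that silences neuronal genes in other cells, TCAGCACC on either strand, stood in 3.45% and 1.79%, which is 3 of 87 windows, and the right part, GGACAGC, in 11.5% and 7.87%. None of the 6 motifs contains another. Printed are windows of Cacng2, the member with the largest positive difference in contused cord, and Cacna1b, the member with the smallest p among the contused groups. Their GC contents lie on either side of the median of 61.7%. Capitals mark TATAAA or its reverse complement in Cacng2 (39% GC, chr7:111577708-111578007, minus strand) and GGGCGG and TGACG in Cacna1b (72% GC, chr3:27944236-27944535, minus strand).
Cacng2: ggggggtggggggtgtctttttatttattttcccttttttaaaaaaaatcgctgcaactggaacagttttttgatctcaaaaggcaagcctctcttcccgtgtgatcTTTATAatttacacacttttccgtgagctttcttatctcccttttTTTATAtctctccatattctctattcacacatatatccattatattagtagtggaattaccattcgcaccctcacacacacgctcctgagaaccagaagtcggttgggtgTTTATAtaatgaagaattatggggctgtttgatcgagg
Cacna1b: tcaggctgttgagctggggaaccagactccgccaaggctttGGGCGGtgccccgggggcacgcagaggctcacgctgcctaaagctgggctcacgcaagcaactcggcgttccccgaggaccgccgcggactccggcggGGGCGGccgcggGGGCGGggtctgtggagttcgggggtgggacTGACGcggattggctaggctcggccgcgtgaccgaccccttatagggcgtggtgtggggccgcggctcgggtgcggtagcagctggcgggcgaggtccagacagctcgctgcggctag
A match in these letters describes the window and does not show that a factor binds there.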

How the data were processed

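RNA from 22 spinal cord samples was labelled with biotin and hybridised to Affymetrix arrays, 1 array per sample. The deposited values are linear signal intensities (0.3 to 154527). The submitters' processing notes name RMA, but the deposited values are not logarithmic, and each array has a mean of 250 once 2% of values are trimmed at each end. The number of samples limits the precision.

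The log2 of the intensity was taken. Control probe sets (57) were left out and 31042 were fitted with limma 3.58.1 in R 4.3.3. The fit held 8 group means with a common spread, moderated by eBayes with 14 residual and 4.71 prior degrees of freedom. Two-sided p-values were adjusted by the method of Benjamini and Hochberg over the 31042 probe sets, with a threshold of 0.05. Of these probe sets 20826 carry 1 gene symbol, 436 several and 9780 none, and only the first were used for genes, through the brightest probe set of each. All 111 members were matched to RefSeq by Entrez number. Named are members past the threshold, the 12 with the smallest p in contused versus uninjured cord, the 5 with the smallest p in each other comparison, and a set of genes of known roles, of which some are not reported here. Members, lists, rules and comparisons were chosen with earlier results of these data known.

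Alternatives were quantile normalization, a signal of at least 64, log2 of signal plus 32, trend and robust eBayes, array weights, only the groups compared, the replicate number as a block, each array left out, both outlying uninjured arrays left out, and a gene's mean over its probe sets. Samples with the same replicate number did not deviate together (71 pairs, correlations from -0.20 to 0.20, 7 above 0.1), so the numbers were not taken to pair the samples.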

Additional observations from a re-analysis of the deposited data

How the results depend on the processing

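Precision limits all of these results, since groups hold 2 or 3 arrays and the median standard error of a channel gene was 0.40 in contused versus uninjured cord and 0.77 for contusion against a group of 3. With 1 array of a group of 2 left out, the remaining array is taken to vary as arrays of other groups do. Over the alternatives 1682 values of named genes kept their direction and their side of the threshold, 49 turned in sign, 12 lost a call and 2 gained one.

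In contused versus uninjured cord the count of channel genes called lower was 0 with the replicate block and 0 without laminectomy 2 and normal 1, and 0 to 1 with each array left out. The count called higher was 1 with trend and robust settings and 0 to 1 with each array left out. The median over all channel genes was -0.12 without laminectomy 2 and normal 1. The potassium median was -0.12 with array weights, -0.15 without those 2 arrays and -0.14 to 0.10 with each array left out. In contusion versus normal the median was -0.19 without those 2 arrays. With each array left out, the median over all channel genes ran from -0.023 to 0.30 in contusion versus laminectomy, -0.19 to 0.0049 in contusion versus normal and -0.35 to -0.11 in laminectomy versus normal. Against contusion it ran from -0.19 to 0.036 for clenbuterol, -0.21 to 0.035 for X-ray and -0.14 to 0.090 for tempol plus BSO.

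The differences of 16 named genes turned in sign. With array weights the differences were 0.046 for Scn2a, -0.061 for Scn9a, -0.075 for Kcnj3, -0.095 for Cacna1d and 0.078 for Cacnb4. Without laminectomy 2 and normal 1 they were 0.22 for Scn2a, -0.43 for Scn9a, -0.48 for Kcnj3, -0.044 for Kcnk6, -0.34 for Cacna1d, 0.11 for Cacna1g and 0.21 for Cacnb4. With the mean of all probe sets they were 0.10 for Scn2b, -0.35 for Kcnc2, -0.14 for Kcnj3 and 0.062 for Cacna1b, and for Kcng2 -0.15 in X-ray, -0.48 in BSO and -0.94 in tempol plus BSO versus contusion. With each array left out the ranges were -0.52 to 0.13 for Scn2a, -0.19 to 0.56 for Scn9a, -0.058 to 0.26 for Kcnc2, -0.19 to 0.093 for Kcnd2, -0.30 to 0.60 for Kcnj3, -0.21 to 0.16 for Kcnj8, -0.12 to 0.88 for Kcnn4, -0.20 to 0.36 for Kcnk6, -0.34 to 0.25 for Cacna1d, -0.30 to 0.093 for Cacna1g, -0.24 to 0.21 for Cacnb4, -0.0036 to 0.49 for Cacng5 and -0.34 to 0.020 for Cacng7. The cause of these turns was not tested.

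The replicate block changed the call of Scn1a (adjusted p = 0.0550, limma, difference -1.58) and of no other channel gene in contused versus uninjured cord.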
